A study of Homo sapiens with 6 samples.

Results

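The antiviral restriction factors are host proteins that block single steps of viral replication, and 10 of their genes were examined here in mammary epithelial cells that carry the potassium channel subunit GIRK1. The members were chosen by symbol (MX1, MX2, BST2, SAMHD1, IFITM1, IFITM2, IFITM3, RSAD2, SAMD9 and SAMD9L), and all 10 were found among the 20802 genes of the tables. The list was drawn up with the difference between the GIRK1 and the eGFP cells known, so the members' values in GIRK1 are a description of those libraries and are supported by no test. MCF10A is an established human line of benign mammary epithelium. Transcripts were counted in 6 libraries, 2 from each of the groups MCF10A wt (untransfected), MCF10A eGFP (stably overexpressing eGFP, the control) and MCF10A GIRK1 (stably overexpressing the KCNJ3 gene product). Both stable lines were made with the bicistronic vector pIRES2eGFP, selected with G418 and sorted on eGFP fluorescence, so the GIRK1 cells produce eGFP as well, whereas the wt cells went through neither vector, drug nor sorting. The methods speak of replicates and the deposited design of 2 overexpressing and 2 control lines, so it is open whether a replicate is a separate line, and the p-values below measure only the spread between these libraries, which may be technical.

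Cells answer viral nucleic acid by secreting interferons, which bind receptors on the same and on neighbouring cells. Type I and type III interferons act through the kinases JAK1 and TYK2 on a transcription factor complex, with STAT2 and IRF9 among its subunits, that binds the interferon-stimulated response element (ISRE) in the promoters of its target genes. Restriction factors are among these targets. They act at entry (the IFITM proteins), on incoming nucleocapsids and ribonucleoproteins (MX1, MX2), on the supply of nucleotides for viral polymerases (SAMHD1, RSAD2), on translation (SAMD9, SAMD9L) and at the release of new particles (BST2).

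The promoters of the members were read for the ISRE because it is the sequence through which interferon acts on this class of gene. The RefSeq promoter windows (GRCh38.p14, 250 bases before to 50 bases after each start site) held 11 windows for 8 of the 10 members. The ISRE core GAAANNGAA, searched on both strands, was found in 8 of the 11 windows and in 6 of the 8 genes (BST2, IFITM1, IFITM3, MX1, RSAD2 and SAMD9). Among all 27305 genes with a window, 2693 (9.86%) held it. The windows of SAMHD1 and SAMD9L did not have these letters. The following stretches are shown with the matched core in capitals, 5′ to 3′ on the strand of the gene. Where a gene has several annotated starts, they are numbered in the order of their positions. In MX1 start 3 and RSAD2 start 2 the core lies on the opposite strand and is therefore printed as its reverse complement.
BST2, chr19:17405737-17405775 (-): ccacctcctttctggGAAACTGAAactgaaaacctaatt
SAMD9, chr7:93118092-93118130 (-): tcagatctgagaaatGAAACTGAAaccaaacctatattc
IFITM1, chr11:313985-314023 (+): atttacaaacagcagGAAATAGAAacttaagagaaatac
IFITM3, chr11:320872-320910 (-): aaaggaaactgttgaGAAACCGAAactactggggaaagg
MX1 start 3, chr21:41431840-41431878 (+): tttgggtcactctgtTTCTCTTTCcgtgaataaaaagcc
RSAD2 start 1, chr2:6865791-6865829 (+): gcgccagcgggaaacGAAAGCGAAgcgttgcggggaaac
RSAD2 start 2, chr2:6877618-6877656 (+): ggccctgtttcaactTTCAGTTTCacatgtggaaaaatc
BST2 and SAMD9 held the same 9 letters, GAAACTGAA, at 130 and 136 bases before their start sites. In BST2 a second core overlaps the one shown and begins 6 bases further on, 124 bases before the start site. IFITM3 had a second core 52 bases before the start site, beside the one shown at 35 bases. In IFITM1 the core shown begins 40 bases before the start site, and a second core begins 6 bases before it. MX1 had 2 further, overlapping cores on the strand of the gene, 11 and 17 bases after its first start site. These matches describe the letters of the reference and not binding in these cells.

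**Figure D1:**
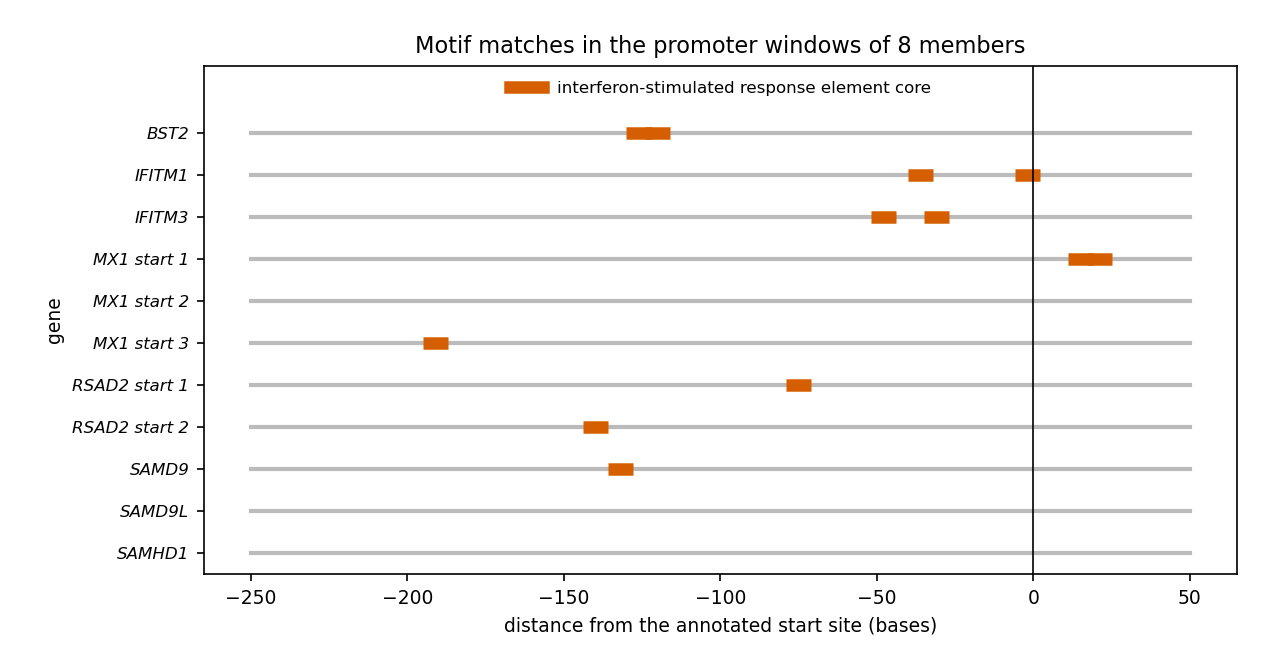
Positions of the ISRE core (orange) in the 11 promoter windows of 8 members, plotted as distance in bases from the annotated start site (vertical line at 0, upstream to the left); grey lines are the windows searched. An ISRE core lies in 8 of the 11 windows, and none in the windows of SAMD9L, SAMHD1 and the second start of MX1.

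The libraries held between 2506120 reads (wt replicate 1) and 16040556 reads (wt replicate 2), with 5126930 in eGFP replicate 1 and 10233974 to 11107309 in the other 3. Each gene was read from 1 amplicon, and values are reads or RPM, in which reads are scaled to the library total of mapped reads. A floor of 3 reads corresponded to 1.20 RPM in wt replicate 1 and to 0.187 to 0.585 RPM in the other 5 libraries. KCNJ3 had 2408 and 3677 reads in the GIRK1 libraries, 0 reads in both eGFP libraries and in wt replicate 2, and 48 reads in the library labelled wt replicate 1. This last library stood apart from the other 5. Its summed level of 12 luminal markers was 17036 RPM against 531 to 1025 RPM, the estrogen receptor gene ESR1 was at 192 RPM against 0 reads in all others, and its 10 basal-like markers summed to 352 RPM against 9667 to 18349 RPM. It was therefore left out of the main comparisons and enters only the fit of all 6 libraries, an alternative, and the values given apart. The basal keratin KRT5 was at 3862 to 10660 RPM in the other 5 libraries, whereas TP63, a defining basal marker, was at 0 reads in all 6. Of 8 blood cell markers, PTPRC, CD3E, LYZ and HBB were at 0 reads in all 6 libraries. The summed level of the list, nearly all of it CD14 and CD68, was 22.3 RPM in wt replicate 2, 44.1 to 45.8 RPM in eGFP and 31.0 to 35.1 RPM in GIRK1. The data names of both GIRK1 libraries differ from those of the other 4 in a code whose meaning is not given. If it marks a run, run and construct cannot be told apart.

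BST2 (tetherin) holds budding virions at the cell surface and was the member with the most reads. Its gene lies on chromosome 19 from 17402939 to 17405648 (minus strand, GRCh38, GENCODE, as for all gene positions here). It had 125 RPM in wt replicate 2, 363 and 254 RPM in eGFP, and 799 and 738 RPM in GIRK1, with at least 1863 reads behind each value. Both GIRK1 libraries lay above all 3 controls, and both eGFP libraries above wt replicate 2. Of all 11779 genes that passed the filter on low counts, 21.6% had the first order and 27.5% the second. The mean in GIRK1 was 769 ± 43.2 RPM (SD, n = 2) and in eGFP 309 ± 77.2 RPM (SD, n = 2), a ratio of 2.49. Against wt replicate 2 the ratio was 6.15. In the library labelled wt replicate 1 BST2 had 6 reads (2.39 RPM). Levels are not compared between genes, since each amplicon has its own efficiency. In bulk RNA, fewer cells with a transcript and less transcript per cell cannot be told apart.

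RSAD2 (viperin) is a radical SAM enzyme that makes a chain-terminating nucleotide analogue, and it showed the largest ratio among the members with reads in every compared library. It lies on chromosome 2 from 6865806 to 6898239 (plus strand). It had 58 reads (3.62 RPM) in wt replicate 2, 1 and 10 reads (0.195 and 0.977 RPM) in eGFP, and 493 and 752 reads (44.4 and 72.7 RPM) in GIRK1. The 3 groups did not overlap, with eGFP lowest and GIRK1 highest. Both eGFP libraries lay below wt replicate 2 for 35.9% of all genes that passed the filter. The GIRK1 mean of 58.5 ± 20.0 RPM (SD, n = 2) was 99.9 times the eGFP mean of 0.586 ± 0.553 RPM (SD, n = 2) and 16.2 times wt replicate 2. The first ratio rests on 11 reads in eGFP, and the 2 eGFP libraries differed among themselves with a coefficient of variation of 0.944. On the log2 scale of the fit the differences were 6.37 ± 0.53 (SE) against eGFP and 4.04 ± 0.56 (SE) against wt replicate 2. No read was counted in wt replicate 1, where the floor was 1.20 RPM.

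SAMHD1 hydrolyses deoxynucleoside triphosphates and so limits reverse transcription (chromosome 20 from 36889773 to 36951901, minus strand). It was read at 5.86 RPM in wt replicate 2, 12.5 and 4.69 RPM in eGFP and 33.2 and 47.4 RPM in GIRK1. The GIRK1 libraries lay above all controls, while the wt library fell between both eGFP libraries. The ratio of the GIRK1 mean (40.3 ± 10.0 RPM, SD, n = 2) to the eGFP mean (8.59 ± 5.51 RPM, SD, n = 2) was 4.69, and to wt replicate 2 it was 6.88. Among the members with reads in both wt libraries, SAMHD1 had the most similar levels in them, with 15 reads (5.99 RPM) in wt replicate 1.

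SAMD9 and SAMD9L are neighbouring paralogs on chromosome 7 (93099513 to 93118023 and 93130055 to 93148369, both minus strand) that act against poxviruses by blocking protein synthesis. Their coding sequences were identical at 72.5% of 4699 aligned bases. SAMD9 had 5.05 RPM in wt replicate 2, 6.63 and 3.71 RPM in eGFP and 25.7 and 42.0 RPM in GIRK1. The controls overlapped and both GIRK1 libraries were higher, with a GIRK1 to eGFP ratio of 6.55 and a ratio to wt replicate 2 of 6.71. SAMD9L had 6 reads (0.374 RPM) in wt replicate 2, 0 reads in both eGFP libraries, and 37 and 53 reads (3.33 and 5.12 RPM) in GIRK1. Its GIRK1 mean was 7.22 times the floor of the shallower eGFP library and 11.3 times wt replicate 2. SAMD9L, like MX2, passed the filter on low counts only through the GIRK1 libraries. In wt replicate 1, SAMD9 had 2 reads and SAMD9L none.

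MX1 and MX2 are dynamin-like GTPases that lie next to each other on chromosome 21 (41420304 to 41459214 and 41361943 to 41409390, both plus strand). MX1 acts against influenza and other RNA viruses and MX2 against HIV. MX1 had 18 reads (1.12 RPM) in wt replicate 2, 2 and 17 reads (0.390 and 1.66 RPM) in eGFP and 70 and 72 reads (6.30 and 6.96 RPM) in GIRK1. The GIRK1 libraries agreed within their counting intervals and lay above all controls, at 6.46 times the eGFP mean and 5.91 times wt replicate 2. The eGFP libraries differed with a coefficient of variation of 0.876. In wt replicate 1, MX1 had 6 reads (2.39 RPM). MX2 had 8 and 14 reads (0.720 and 1.35 RPM) in GIRK1 and 0 reads in all 4 other libraries. The GIRK1 mean of MX2 was 1.77 times the floor of 3 reads in the shallower eGFP library and 5.54 times that of wt replicate 2. Coding sequences of MX1 and MX2 were identical at 70.3% of 1970 aligned bases.

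The IFITM proteins sit in endosomal and plasma membranes and hinder fusion of enveloped viruses. Their genes lie together on chromosome 11, IFITM1 from 313506 to 315272 and IFITM2 from 307631 to 315272 (plus strand), and IFITM3 from 319669 to 327537 (minus strand). The GENCODE model of IFITM2 spans that of IFITM1, and the coding sequences are identical at 94.0% between IFITM2 and IFITM3, 89.7% between IFITM1 and IFITM3 and 86.4% between IFITM1 and IFITM2. How reads shared by such copies were assigned is not given in the sources used here, so the split between the 3 genes is uncertain. All 13 reads of IFITM1 came from the forward strand, as did 84.7% of the reads of IFITM2 and 81.9% of those of IFITM3, and 30.6% of the reads of IFITM2 covered its amplicon against 81.9% for IFITM3.

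IFITM3, which blocks influenza virus in late endosomes, had 1.37 RPM in wt replicate 2, 2.34 and 2.25 RPM in eGFP and 4.59 and 6.19 RPM in GIRK1. Both GIRK1 libraries were above all controls, and the GIRK1 mean (5.39 ± 1.13 RPM, SD, n = 2) was 2.35 times the eGFP mean (2.29 ± 0.0659 RPM, SD, n = 2) and 3.93 times wt replicate 2. IFITM2 was the exception among the members. It had 1.31 RPM in wt replicate 2, 0.975 and 1.17 RPM in eGFP and 1.08 and 2.13 RPM in GIRK1, so that GIRK1 replicate 1 fell among the controls. Its fitted log2 differences were 0.52 ± 0.65 (SE) against eGFP and 0.31 ± 0.73 (SE) against wt replicate 2, and both turned negative without GIRK1 replicate 2 (-0.054 and -0.271). IFITM1, the form found mainly at the plasma membrane, had 3 and 10 reads (0.270 and 0.967 RPM) in GIRK1 and 0 in the other 4 libraries. Its mean of 0.618 ± 0.492 RPM (SD, n = 2) was 1.06 times the floor of the shallower eGFP library and 3.31 times that of wt replicate 2. IFITM1 had too few reads to enter the fit. In wt replicate 1, IFITM3 had 5 reads, and IFITM1 and IFITM2 had none.

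**Figure D2:**
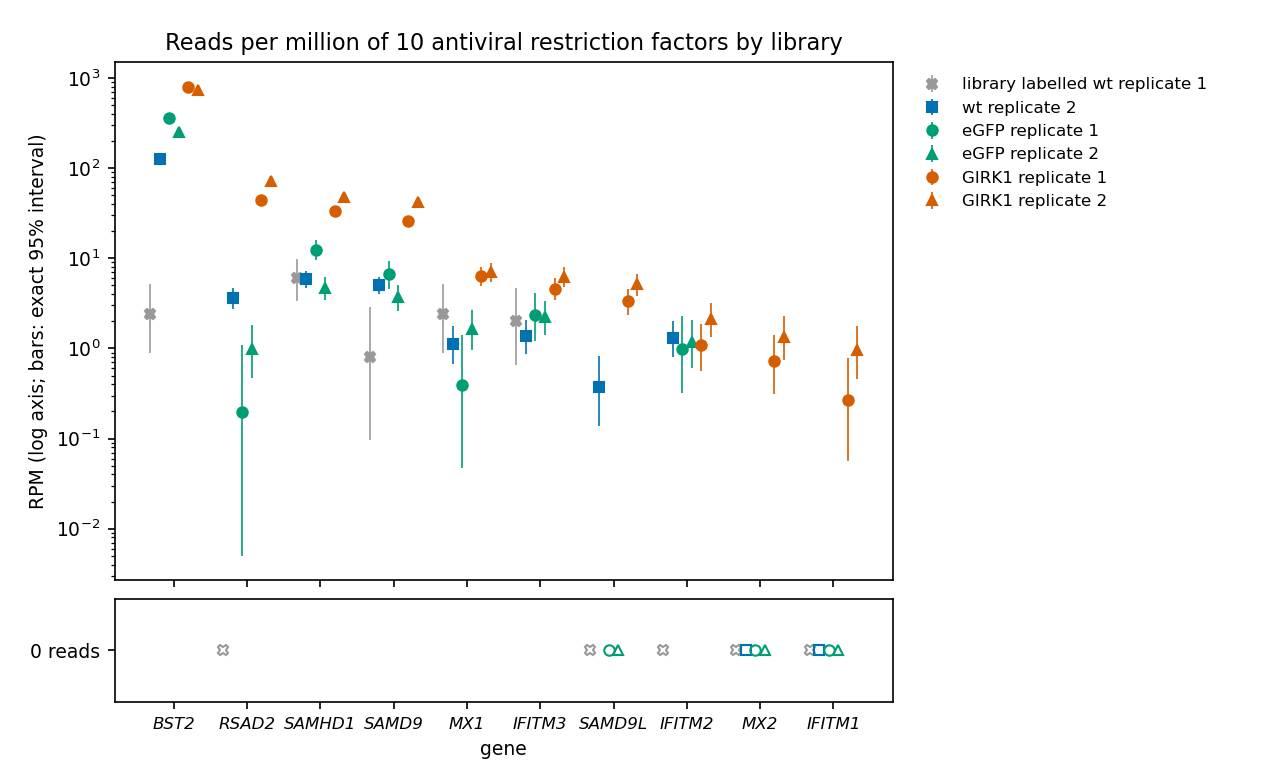
Level of each member in each of the 6 libraries in RPM on a log axis, with exact (Clopper-Pearson) 95% intervals for counting error; libraries with 0 reads are drawn as open symbols in the strip below. Both GIRK1 libraries (orange) lie above eGFP (green) and wt replicate 2 (blue) for every member except IFITM2. MX2 and IFITM1 have reads in GIRK1 only. Their intervals in GIRK1 replicate 1 start at 0.311 and 0.0557 RPM. Both starts are below 0.720 RPM, the upper limit of eGFP replicate 1 at 0 reads.

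Across the members tested, 8 of 9 had both GIRK1 libraries above eGFP replicates 1 and 2 and wt replicate 2. Of all 11779 genes that passed the filter on low counts, 21.6% had this order and 19.3% the opposite one. In the fit of the 5 libraries (edgeR's quasi-likelihood test, Benjamini-Hochberg adjustment over all genes tested, threshold 0.05), 3 of 9 members were called higher in GIRK1 than in eGFP (RSAD2, SAMD9 and SAMD9L), and 0.756% of all genes were. No member was called lower, against 0.84% of all genes. At an unadjusted p below 0.05 the members numbered 8 (all but IFITM2), against 8.13% of all genes. Nothing is read from these counts, because the members were chosen on this contrast. MX2 and SAMD9L also passed the filter only through the GIRK1 libraries, so their place in these counts follows partly from the filter. Without eGFP replicate 1 or without eGFP replicate 2, the calls against eGFP rose to 6, with MX1, BST2 and SAMHD1 added. All genes called higher rose in the same settings from 89 of 11779 to 430 of 11685 and 1372 of 11739. In the fit of all 6 libraries no member and no other gene was called, with 606 genes at an unadjusted p below 0.05 (edgeR). DESeq2, run on the 5 libraries, called 6 members and 227 of 11550 genes higher. Against wt replicate 2, 0 of 9 members were called (0.195% of all genes were called higher and 0.034% lower), and 8 of 9 had an unadjusted p below 0.05 (3.76% of all genes). DESeq2 called 4 of them there (BST2, SAMHD1, RSAD2 and SAMD9) and 83 of 11093 genes higher. Without eGFP replicate 1, eGFP replicate 2, GIRK1 replicate 1 or GIRK1 replicate 2, the members called against wt replicate 2 numbered 7, 6, 4 and 2. All genes called higher in these settings numbered 292, 226, 45 and 28, against 23 with all 5 libraries.

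The methods select genes by a fold difference and a limit on the coefficient of variation between replicates. This was applied here to RPM, as group means at least 2-fold apart and a coefficient below 0.7 within eGFP and within GIRK1. By this reading 4 of the 7 members with reads in both groups were higher in GIRK1 than in eGFP (BST2, SAMHD1, IFITM3 and SAMD9), as were 4.75% of 13200 genes, while 0 members and 5.17% of genes were lower. MX1 and RSAD2 exceeded 2-fold and were left out by the spread of their eGFP libraries alone. Without the limit on that coefficient the rule took in 6 of 7 members and 9.22% of genes. The median fitted log2 difference over the 9 members was 2.51 against eGFP and 2.77 against wt replicate 2. With members at 0 reads in the control set against the floor, the medians were 2.23 and 2.64. The 9 members include MX2 and SAMD9L, which passed the filter only through the GIRK1 libraries. Over all genes tested the medians were 0.02 and 0.01. Both contrasts share the GIRK1 libraries and are not independent of each other.

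**Figure D3:**
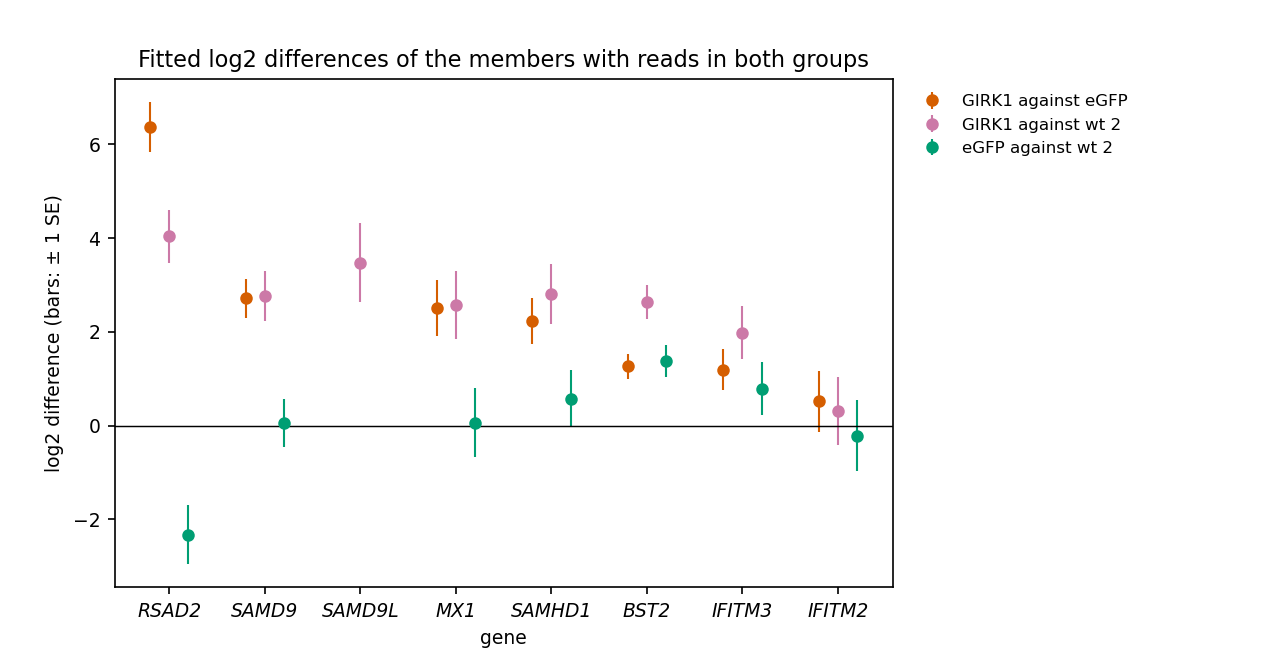
Fitted log2 differences (points) with 1 standard error (bars) for the members with reads in both groups of a contrast: GIRK1 against eGFP (orange), GIRK1 against wt replicate 2 (pink) and eGFP against wt replicate 2 (green). RSAD2 is highest in both GIRK1 contrasts (6.37 and 4.04) and lowest in the control contrast (-2.33), and the bars of IFITM2 cross 0 in all 3.

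The comparison of eGFP with wt replicate 2 asks how far the controls differ from each other, and the list was not drawn up on it. It shares the eGFP libraries with the contrast that was known when the list was made, so its p-values are not independent of that choice. No member passed the adjusted threshold, nor did any other gene in the edgeR fit (0% called). At an unadjusted p below 0.05, 253 genes were higher and 165 lower (2.15% and 1.4%), and DESeq2 called 3 higher and 2 lower, none of them a member. BST2 was higher in eGFP by 1.38 ± 0.34 (log2, SE; unadjusted p = 0.00520, adjusted p = 0.953, edgeR), in 2 of 2 eGFP libraries. RSAD2 was lower with a log2 difference of -2.33 ± 0.63 (SE; unadjusted p = 0.00765, adjusted p = 0.953, edgeR), also in 2 of 2 libraries. Over the alternatives the adjusted p-values ran from 0.00109 to 0.964 for BST2 and from 0.0294 to 0.964 for RSAD2. The lowest of each came without eGFP replicate 2, which leaves 1 eGFP library whose spread is assumed to be that of the GIRK1 pair. For the other members with reads in eGFP the log2 differences were between -0.21 (IFITM2) and 0.79 (IFITM3), with standard errors of 0.51 to 0.77. SAMD9L at 0.374 RPM in wt replicate 2 was below the floor of eGFP replicate 1 (0.585 RPM) and just above that of eGFP replicate 2 (0.293 RPM). Its unadjusted p was 0.0359 (adjusted p = 0.953, edgeR), on 6 reads against 0 and 0, and no fold is given. MX2 and IFITM1 had 0 reads on both sides. Of the 9 members tested, 2 had both eGFP libraries above wt replicate 2 and 3 had both below it. Of all genes tested, 27.5% and 35.9% had these orders. The median of the 7 members with reads in eGFP was 0.06, against 0.01 for all genes tested.

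The members also differed between both GIRK1 libraries. GIRK1 replicate 2 was above GIRK1 replicate 1 for 9 of 10 members, all but BST2. With a mean of 10 or more reads required, 8 of 9 members and 46.3% of 11167 genes had that order. KCNJ3 itself was 1.64 times as high in replicate 2 as in replicate 1. The ratios were 1.64 for RSAD2, 1.63 for SAMD9, 1.54 for SAMD9L, 1.43 for SAMHD1, 1.35 for IFITM3, 1.10 for MX1 and 0.924 for BST2. On few reads they were 3.58 for IFITM1, 1.97 for IFITM2 and 1.88 for MX2. For RSAD2 the counting intervals of replicates 1 and 2 (40.6 to 48.5 and 67.6 to 78.1 RPM) did not overlap, and neither did those of SAMD9 (22.9 to 28.9 and 38.2 to 46.2 RPM) or SAMHD1 (29.9 to 36.8 and 43.3 to 51.7 RPM). Those of BST2 did not overlap either, with replicate 1 the higher (783 to 816 and 722 to 755 RPM). The intervals of MX1, MX2, SAMD9L and the IFITM genes overlapped. With 1 library each, this is a description of these libraries.

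The interferon pathway around the members was described with a list of 36 signalling and induced genes, of which 35 were in the tables and 34 were tested. In GIRK1, 28 of these 34 passed the threshold against eGFP, all higher (0.756% of all genes tested did). The median log2 difference was 3.43, or 3.37 with the gene at 0 reads in eGFP set against the floor. Against wt replicate 2, which is 1 library, the median was 3.15, against 0.01 over all genes tested. The list was written with results of these data known and is not independent evidence of its direction. IFI6, a small mitochondrial and endoplasmic reticulum protein, had 25.1 RPM in wt replicate 2, 35.9 and 15.6 RPM in eGFP and 6613 and 9858 RPM in GIRK1, a log2 difference from eGFP of 8.28 ± 0.58 (SE; adjusted p = 0.00210, edgeR). OAS2, which makes the activator of RNase L, went from 19 reads in wt replicate 2 and 4 and 3 reads in eGFP to 916 and 1122 reads in GIRK1. CMPK2, a mitochondrial nucleotide kinase encoded beside RSAD2, had 1 read in wt replicate 2, 0 and 1 in eGFP and 204 and 145 in GIRK1. Like XAF1, which was tested and not called, CMPK2 passed the filter on low counts only through the GIRK1 libraries. The place of CMPK2 among the 28 follows partly from the filter.

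STAT2 and IRF9, subunits of the complex that binds the ISRE, were higher in GIRK1 than in eGFP. STAT2 had 452 reads in wt replicate 2, 154 and 314 reads in eGFP and 1296 and 1478 reads in GIRK1. IRF9 had 14.8 RPM in wt replicate 2, 15.6 and 13.0 RPM in eGFP and 110 and 151 RPM in GIRK1. They differed from eGFP by 2.06 ± 0.22 and 3.16 ± 0.28 (log2, SE; adjusted p = 0.0103 and 0.00471, edgeR). USP18, which switches off signalling at the receptor, differed by 2.84 ± 0.29 (log2, SE; adjusted p = 0.00764, edgeR). Against wt replicate 2 IRF9 passed the threshold, and STAT2 and USP18 were just outside it, each at an adjusted p of 0.0502 (edgeR). The receptor genes IFNAR1 and IFNAR2 and the kinases JAK1 and TYK2 did not pass against eGFP, with log2 differences of 0.08 ± 0.22, -0.28 ± 0.25, 0.66 ± 0.21 and -0.58 ± 0.30 (SE). These 4 genes were named after their values were seen.

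The 8 interferon ligands listed, with IFNA1 as the only interferon alpha gene, were read at or near 0. Other ligands were not examined. IFNB1 (interferon beta) had 2 and 2 reads in GIRK1, 1 in wt replicate 2 and 0 in the other 3 libraries. IL29, the table's symbol for interferon lambda 1 (IFNL1), had 2 and 5 reads in GIRK1, and IL28A (IFNL2) had 0 and 4, with 0 reads of both in the other 4 libraries. IFNE had 5 and 8 reads in GIRK1, 5 and 3 in eGFP and 7 in wt replicate 2. IFNA1, IFNK, IFNG and IL28B (IFNL3) had 0 reads in all 6 libraries. Only IFNE had enough reads to enter the fit, and it passed the threshold in none of the 3 contrasts. For the other ligands, differences between groups were not tested.

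Of 24 other host antiviral factors 20 were tested, and 6 passed against eGFP, all higher in GIRK1 (0.756% of all genes tested were). This list, too, was written with results of these data known and is not independent evidence of its direction. The median log2 difference was 1.17, or 0.92 with the gene at 0 reads in eGFP set against the floor. That gene, GBP5, passed the filter on low counts only through the GIRK1 libraries and was not called. PLSCR1, a membrane scramblase that blocks viral fusion, had 60.2 RPM in wt replicate 2, 20.1 and 45.8 RPM in eGFP and 285 and 291 RPM in GIRK1. TRIM22, a ubiquitin ligase, had 8.91 RPM in wt replicate 2, 11.5 and 12.7 RPM in eGFP and 66.2 and 68.8 RPM in GIRK1. C19orf66, an inhibitor of ribosomal frameshifting, had 12.4 RPM in wt replicate 2, 16.2 and 11.3 RPM in eGFP and 65.6 and 66.8 RPM in GIRK1. Their log2 differences from eGFP were 3.09 ± 0.37, 2.44 ± 0.23 and 2.23 ± 0.28 (SE). Against wt replicate 2, which is 1 library, the median over the 20 was 1.03, and TRIM22 was highest (2.94 ± 0.31, SE).

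Enzymes of deoxynucleotide metabolism (the list named deoxynucleotide supply) were set beside SAMHD1, which hydrolyses deoxynucleoside triphosphates. None of the 7 (RRM1, RRM2, RRM2B, DCK, TK1, DCTPP1 and DUT) passed the threshold in any of the 3 contrasts, and the median against eGFP was -0.35. TK1, RRM2 and RRM1 were lower in GIRK1 than in eGFP (-1.93 ± 0.53, -1.39 ± 0.51 and -0.72 ± 0.25, log2, SE). Each had an unadjusted p below 0.05 (edgeR), as did 10.7% of all genes tested in that direction. TK1 had 119.96 and 38.3 RPM in eGFP and 24.04 and 19.1 RPM in GIRK1. RRM2 had 317.3 and 106.2 RPM in eGFP and 98.6 and 70.6 RPM in GIRK1. The differences of TK1 and RRM2 from eGFP therefore lean on eGFP replicate 1. RRM1 had 66.5 and 55.01 RPM in eGFP and 43.03 and 33.1 RPM in GIRK1. Against wt replicate 2 the differences of TK1, RRM2 and RRM1 were -0.59 ± 0.62, -0.17 ± 0.61 and -0.55 ± 0.29 (log2, SE). The median of the 7 was 0.02 there.

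**Figure D4:**
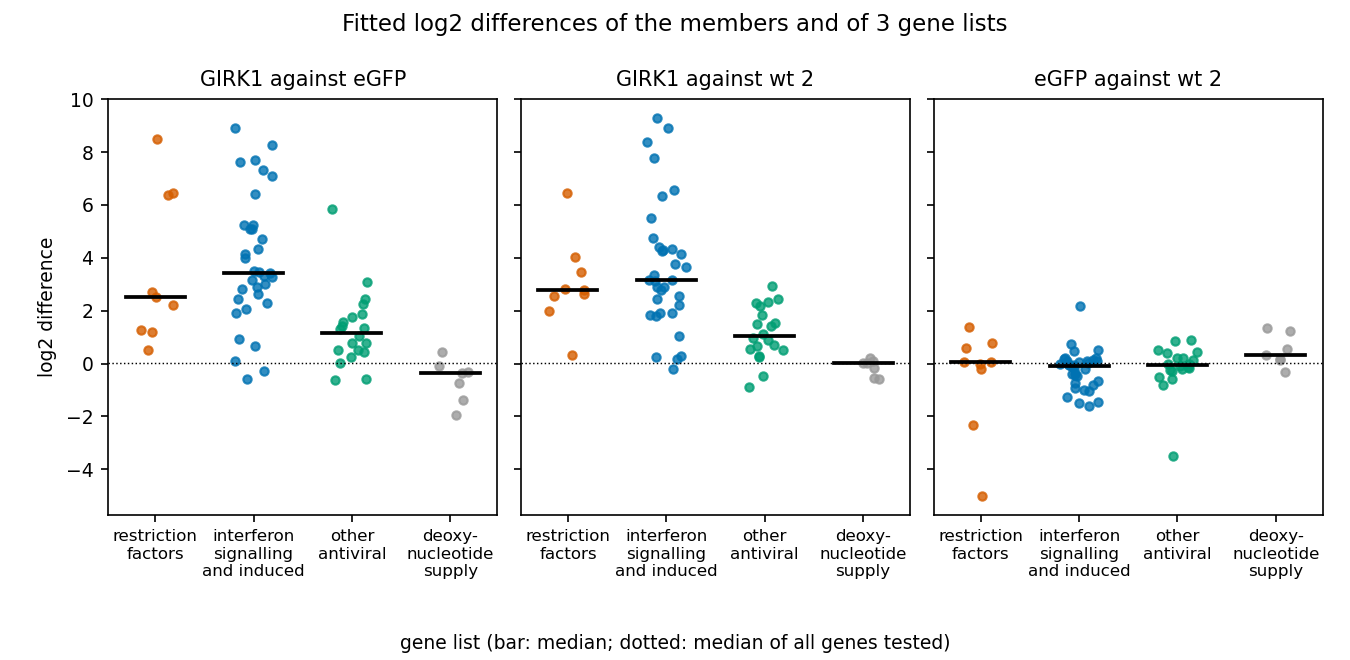
Fitted log2 differences of single genes (points) in 4 lists, with the median of each list (black bar) and of all genes tested (dotted line), for GIRK1 against eGFP, GIRK1 against wt replicate 2 and eGFP against wt replicate 2. Medians of the members are 2.51, 2.77 and 0.05 and those of the interferon list 3.43, 3.15 and -0.09. Genes at 0 reads in 1 group, such as MX2 and SAMD9L in GIRK1 against eGFP, are drawn at fitted values that depend on the prior count. MX2 and XAF1 have 0 reads in both groups of eGFP against wt replicate 2. They are drawn at 0 there and enter the medians, but are not measurements.

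The genes whose profile was most like the mean profile of the members were sought among 11142 genes whose mean was 10 reads or more, by the root-mean-square distance of centred log2 values over the 5 libraries. The 5 nearest were USP18 (distance 0.191), SP100 (0.199), IFIH1 (0.212), DTX3L (0.216) and UBE2L6 (0.262). SP100, a component of the nuclear bodies that silence incoming viral DNA, had 8.35 RPM in wt replicate 2, 9.36 and 8.31 RPM in eGFP and 48.6 and 54.0 RPM in GIRK1. IFIH1, a sensor of double-stranded RNA, had 7.54 RPM in wt replicate 2, 5.07 and 8.60 RPM in eGFP and 32.8 and 54.5 RPM in GIRK1. Of the 7 members with reads in all 5 libraries, SAMD9 (0.315) was closest to the members' mean, and IFITM2 (1.11) and RSAD2 (1.74) were farthest from it. The mean contains the members themselves, and also MX2 and SAMD9L, whose profiles depend on the offset added to 0 reads.

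In wt replicate 1 several members differed from the other wt library, and the levels are listed apart. BST2 was 52.2 times and SAMD9 6.33 times as high in wt replicate 2, whereas MX1 was 2.13 times and IFITM3 1.45 times as high in wt replicate 1, on 6 and 5 reads. At 2506120 reads, the counting intervals of the 5 members without a read there (MX2, IFITM1, IFITM2, RSAD2 and SAMD9L) reached up to 1.47 RPM.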

How the data were processed

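Libraries were prepared with the Ion AmpliSeq Transcriptome kit and sequenced on an Ion S5 XL. In the Ion Torrent suite the authors mapped reads to AmpliSeq amplicons of the human transcriptome. They deposited raw read counts per amplicon and RPM, which are these counts scaled to the library total. Versions and the handling of reads shared by copies are not given in the sources used here. Rows were joined by amplicon, and 10 spike-in amplicons at 0 reads were left out.

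Groups follow the labels. The main fit used 5 libraries without wt replicate 1 (TMM, filterByExpr, glmQLFit and glmQLFTest in edgeR 4.0.16, limma 3.58.1, R 4.3.3; 2 residual degrees of freedom), in which the single wt library is assumed to vary like the other groups. DESeq2 1.42.0 was an alternative, beside other scalings, filters, library sets, the replicate number as a block and leaving out each library. Covering reads in place of all reads were added after seeing the data. Intervals (scipy 1.17.1) and floors cover counting error only. Folds against a group at 0 use the floor of its shallowest library. Coding sequences of GENCODE release 29 were aligned with Biopython 1.88. Scripts were tested on simulated counts.

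The members, the gene lists and the tests were chosen with earlier results of these data known. Named were all members, the 3 largest folds each way past the threshold in each list, STAT2, IRF9, USP18, ligands with any read and the 5 genes most like the members. Some items under this rule are not reported here.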

Additional observations from a re-analysis of the deposited data

Results flagged for a closer look

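KCNJ3 had 48 reads (19.2 RPM, exact 95% interval 14.1 to 25.4 RPM) in the library labelled wt replicate 1, which enters no main comparison, whereas wt replicate 2 and both eGFP libraries had 0 reads.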

How the results depend on the processing

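Genes higher and lower in GIRK1 than in eGFP (89 and 99, with 3 members) became 313 and 552 (6 members) without a filter, 57 and 50 (1 member, 4 tested) with at least 10 reads in every library, 227 and 450 (6 members) by DESeq2, and 0 and 0 (0 members) in the fit of all 6 libraries, where 606 genes had an unadjusted p below 0.05 and the smallest adjusted p was 0.221. With the 3 controls pooled, 47 were lower, and 2 members were called, as SAMD9L was lost (log2 difference 4.48, adjusted p = 0.0645, edgeR, in a range of 0.000456 to 0.836 over the alternatives). Against wt replicate 2 (23 and 4, with 0 members) they became 74 and 59 (4 members), 14 and 2, 83 and 45 (4 members) and 0 and 0 under the same 4 settings, and with library totals 8 were lower and 1 member (BST2) was called. For eGFP against wt replicate 2 (0 and 0), 3 and 3 were called without a filter and 3 and 2 by DESeq2. Leaving out 1 library gave 86 to 1372 higher, 72 to 1625 lower and 3 to 6 members against eGFP, with the highest counts without eGFP replicate 2; 28 to 292, 6 to 284 and 2 to 7 members against wt replicate 2; and 3 to 704, 2 to 564 and 0 to 1 member higher for eGFP against wt replicate 2. Without the limit on the coefficient of variation the selection rule called 1217 genes in place of 627. Covering reads in place of all reads gave the same members (3 and 0). Leaving out wt replicate 2 gives no value for the contrasts with it. The cause of these shifts was not tested.

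The replicate numbers are only numbers here: there are 2 pairs, and the replicate differences of eGFP and GIRK1 correlated with r = 0.196 across 9091 genes, which are not independent replicates. When replicate numbers entered as a block (4 libraries of eGFP and GIRK1), 217 genes were higher and 373 lower, with 6 members (MX1, BST2, SAMHD1, RSAD2, SAMD9 and SAMD9L).

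Of the members' log2 differences, IFITM2 reversed without GIRK1 replicate 2 (range over left-out libraries -0.054 to 0.947 against eGFP and -0.271 to 0.733 against wt replicate 2). For eGFP against wt replicate 2, where none was called, MX1 reversed with all 6 libraries, where the reference is both wt libraries (-0.468) and without eGFP replicate 2 (-1.38, up to 0.561 without another library), SAMHD1 without eGFP replicate 1 (-0.321, up to 1.21), IFITM2 with all 6 libraries (0.383) and SAMD9 with library totals (-0.0129) and without eGFP replicate 1 (-0.443, up to 0.512). In both GIRK1 contrasts every other member kept its sign under every alternative in which it was tested. The depth limits MX2, IFITM1 and SAMD9L, whose control libraries hold 0 to 6 reads.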
